A study of Homo sapiens with 24 samples.

Results

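Knockdown of FOXM1 was examined in A549 cells, an established human lung adenocarcinoma line, as 4 siFOXM1 RNA-seq libraries against 4 siControl libraries, which are 8 of the 24 libraries of the series. The libraries were chosen by their labels alone. The siFOXM1 cells were transfected with siRNAs against FOXM1 at 25 nM and the siControl cells with a scrambled siRNA at 25 nM, and the time from transfection to RNA extraction is not given in the sources used here. The other libraries include 4 of MYBL2 knockdown (siMYBL2), with siRNAs at 25 nM, which share the 4 siControl libraries. There are 3 of the double knockdown (siBoth) with 3 controls of their own. The siRNA amount per factor in the double knockdown is not given in the sources used here. The last are 3 of cells given FDI-6, a small molecule that inhibits FOXM1 binding to DNA. It was given at 20 µM for 24 hours, and these libraries have 3 controls of their own. The siRNA libraries all come from the same line, and the study's methods call its replicates biological. The labels do not say whether the 4 libraries of a group came from separate cultures, and p-values measure the spread between these samples.

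FOXM1 is a forkhead transcription factor whose level and activity rise from S phase to mitosis. With the MuvB complex and the MYB-family factor MYBL2 (B-Myb) it is recruited to promoters of late cell cycle genes, many of which carry a cell cycle genes homology region (CHR element), and it promotes transcription of cyclins, kinases and kinetochore proteins that are needed for entry into and passage through mitosis. In bulk RNA, fewer cells in G2 and M phase and less of a transcript in each such cell cannot be told apart.

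The read pairs counted in genes numbered 23964711 to 28880535 in the siControl libraries and 24861818 to 30140550 in the siFOXM1 libraries. Levels are given below as TMM-normalized CPM, counts scaled to a common library size, with the mean ± SD over 4 libraries, and changes as the log2 fold change of siFOXM1 over siControl, with its standard error (SE) and the Benjamini-Hochberg adjusted p of edgeR's quasi-likelihood test with the replicate number as a block. Values in parentheses after a gene are its log2 fold change. A gene was called where the adjusted p was below 0.05 and the fold change exceeded 1.5. Same-numbered libraries of the 2 groups deviated together, so the block stayed in the comparison. The epithelial keratin gene KRT8 was at a mean of 4070 CPM in siControl and 3882 CPM in siFOXM1 cells, whereas surfactant genes of differentiated alveolar cells and leukocyte markers such as PTPRC and CD3E held 0 to 14 counts per library. Some markers had enough counts to be tested, namely 6 of 6 lung epithelial, 2 of 8 alveolar type II, 1 of 6 immune and 2 of 4 endothelial genes. None of these was called. Of the fibroblast markers COL1A2 and DCN held 0 to 3 counts. Of the 4 tested of 6, 2 were higher by the adjusted p, COL1A1 (called at 0.65, but not without the block) and COL3A1 (0.54), and the median was 0.48. Their part in the other results was not tested. COL1A1, COL3A1, RHNO1, PLK1, AURKA, BUB1, BUB1B, TOP2A, NEURL1, CCNB2, CKS1B and CKS2 are given here after their values were seen.

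FOXM1 itself (chr12:2857680-2877174, minus strand in hg38, 9 exons) fell to 9.59% of control. It was at 128, 131, 139.5 and 108 CPM in siControl replicates 1 to 4 and at 12.8, 13.2, 12.3 and 10.2 CPM in siFOXM1 replicates 1 to 4. Every knockdown library lay far below every control library, with means of 12.1 ± 1.32 and 126 ± 13.4 CPM (SD, n = 4 each), and the log2 fold change was -3.38 (SE 0.0468, adjusted p = 4.92e-27). With the 4 pairs alone, the exact two-sided sign permutation test gave p = 0.125, the smallest value that 4 pairs allow. A gene of the other strand covers 15.9% of the FOXM1 exon bases, and the neighbour RHNO1 stood at a log2 fold change of 0.02 (adjusted p = 0.795, edgeR). MYBL2, the partner of FOXM1 at late cell cycle promoters, was at 147, 158, 179 and 133 CPM in siControl and at 142, 149, 174 and 128 CPM in siFOXM1 libraries, and its log2 fold change of -0.06 did not pass the test (adjusted p = 0.191).

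Of 15892 genes tested, 234 were called lower with siFOXM1, 1.47% of those tested, and 167 were called higher, 1.05%. The lower set was made mostly of protein-coding genes, 209 of its 234 (89.3%, against 83.2% of all genes tested). In it 140 genes averaged 100 counts or more per library, as did 11438 of the 15892 genes tested. Its median count was 290, against 506 over all genes tested, and its median log2 fold change was -0.75. The higher set held 95 protein-coding genes, 137 of its genes had a mean under 100 counts, and its median was 0.74. Changes over 2-fold were seen for 41 lower and 29 higher genes. By the adjusted p alone, 2232 genes (14%) were lower and 1955 (12.3%) higher, most of them by less than 1.5-fold. Without the block 94 genes were called lower and 12 higher, so that the share of calls that were higher went from 41.6% to 11.3%.

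**Figure D1:**
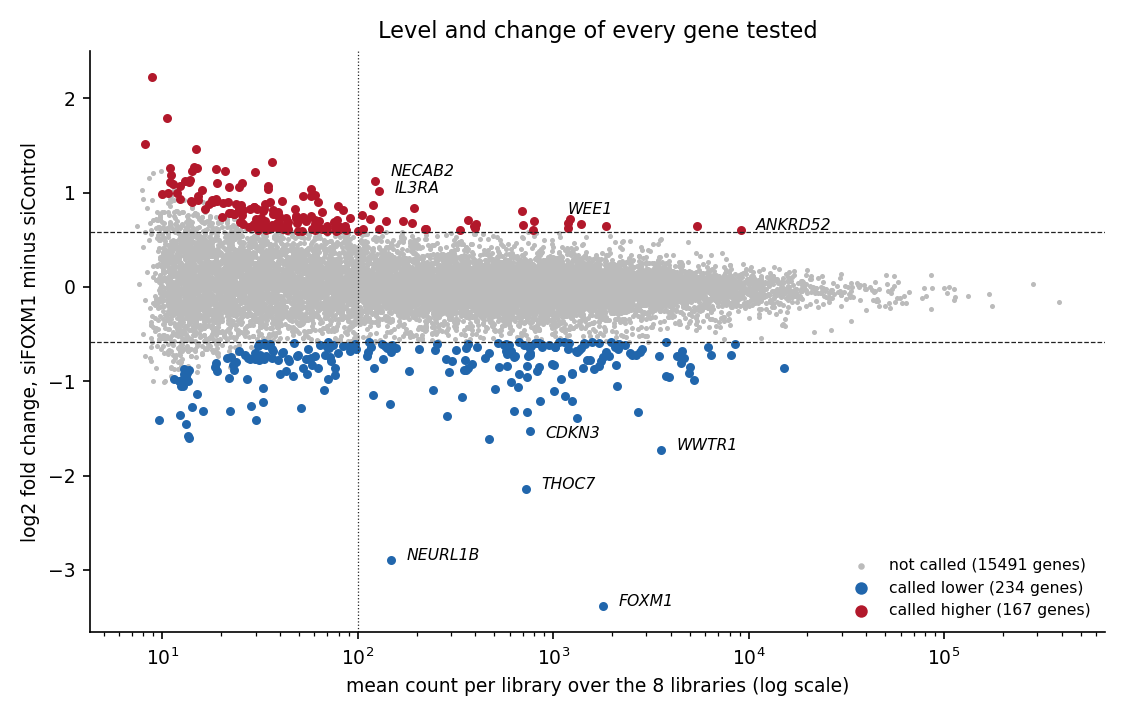
Log2 fold change of siFOXM1 over siControl (vertical axis) against the mean count per library over the 8 libraries (horizontal axis, log scale) for the 15892 genes tested. Blue and red points are the 234 genes called lower and the 167 called higher, dashed lines mark 1.5-fold and the dotted line 100 counts; most red points lie left of the dotted line.

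A minority of the mitotic programme was called lower. Of 116 tested genes in 9 lists of mitotic functions, 13 were called lower, WEE1 alone was called higher, and by the adjusted p alone 52 were lower (44.8%, against 14.0% of all genes tested) and 6 higher (5.17%, against 12.3%). The median log2 fold change of the 116 was -0.09, against 0.00 over all genes. The 13 were NEK2, CCNF, KIF20A, CENPA, FAM83D, CDK1, CKAP2L, CCNB1, CEP55, BORA, MIS12, CCNA2 and KNSTRN, with log2 fold changes between -0.92 and -0.60 and a median of -0.68. In all 13 the 4 siFOXM1 values lay below the 4 siControl values, and over all genes tested the groups did not overlap for 9.19%. Without the block 11 of the 13 were called, with BORA and FAM83D at an adjusted p of 0.0883 and 0.0560 (edgeR). Of the 13, CENPA, FAM83D, KNSTRN, CCNF, CCNB1, BORA, CDK1 and CCNA2, and outside them NEURL1B and CDKN3, were named as targets by the study, in part from these libraries. Their direction here is therefore not independent evidence. The study also required promoters bound by MYBL2 or FOXM1 and decreases in its other knockdowns. It then measured these targets by RT-qPCR in new knockdowns.

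The cyclins and CDK1 held the largest share of called members. Of 7 tested genes of mitotic cyclins, CDK1 and CKS subunits, 4 were called lower, 6 were lower by the adjusted p alone and the median was -0.61. CCNB1, cyclin B1, the partner of CDK1 that drives entry into mitosis, was at 213, 226, 231 and 194 CPM in siControl and at 128, 137, 153 and 121 CPM in siFOXM1 libraries. The pairs fell together, and the log2 fold change was -0.68 (SE 0.0325, adjusted p = 7.72e-15). CDK1, the mitotic kinase itself, was at 128, 129.9, 136 and 131 CPM in siControl and at 79.4, 82.2, 82 and 82.5 CPM in siFOXM1 libraries. Its values were almost level within each group and well apart between them, with a log2 fold change of -0.69 (SE 0.0338, adjusted p = 1.80e-14). CCNA2, cyclin A2 of S and G2 phase, was at 93, 91.7, 119 and 91.6 CPM against 64.1, 65.1, 72.6 and 57.5 CPM, a log2 fold change of -0.61 (SE 0.0399, adjusted p = 5.49e-12). It was close to the 1.5-fold limit, at -0.57 without replicate 3 and at -0.58 without replicate 4. CCNF, cyclin F, which is the substrate-binding part of an SCF ubiquitin ligase, was at 41.9, 40.6, 47 and 36.1 CPM in siControl and at 23.1, 22, 25.3 and 21.6 CPM in siFOXM1 libraries, with no overlap and a log2 fold change of -0.84 (SE 0.0493, adjusted p = 4.94e-13). CCNB2, the second B-type cyclin, stood at -0.33, and the CDK-binding subunits CKS1B and CKS2 at -0.08 and -0.12.

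Among the 11 tested entry kinases and phosphatases, 2 were called lower and 1 higher, and the median was -0.06. NEK2, a centrosome kinase that separates centrosomes at mitotic entry, was at 60.6, 62.6, 57.8 and 69.8 CPM in siControl and at 30.2, 34.5, 34.7 and 32.8 CPM in siFOXM1 libraries. It was the lowest of the 13, with a log2 fold change of -0.92 (SE 0.0497, adjusted p = 8.92e-14). BORA, the activator of Aurora A towards PLK1, was at 9.38, 10.9, 10.2 and 8.14 CPM against 5.09, 7.60, 6.54 and 5.31 CPM, a log2 fold change of -0.66 (SE 0.0902, adjusted p = 3.31e-06), and a gene of the other strand covers 37.0% of its exons. The kinases of the same route stood near control. PLK1 was at 125, 128, 135 and 109.7 CPM in siControl and at 108, 120.2, 130.4 and 109 CPM in siFOXM1 libraries (log2 fold change -0.09, adjusted p = 0.0643, edgeR), and AURKA was at 0.06 (adjusted p = 0.197, edgeR). WEE1, the kinase that holds CDK1 inactive, went the other way, at 36.9, 40.7, 44.3 and 39.7 CPM in siControl and 61.1, 53.8, 78.4 and 64.5 CPM in siFOXM1 libraries. The groups did not overlap and the log2 fold change was 0.67 (SE 0.0509, adjusted p = 9.66e-11).

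At the kinetochore and spindle, single members fell among many near control. Of 33 centromere and kinetochore genes 3 were called lower (CENPA, MIS12 and KNSTRN) and by the adjusted p alone 10 were lower and 3 higher, with a median of -0.05. CENPA, the histone H3 variant that marks centromeres, was at 29, 26.6, 31.5 and 33.4 CPM in siControl and at 18.2, 16.7, 18.5 and 18.3 CPM in siFOXM1 libraries, which did not overlap (log2 fold change -0.75, SE 0.0561, adjusted p = 7.73e-11). MIS12, a subunit of the outer kinetochore, was at 33.6, 33.7, 31.1 and 33.4 CPM against 21.4, 23.8, 18 and 22.9 CPM (-0.62), and -0.57 without replicate 3. KNSTRN, a spindle and kinetochore protein, was at -0.60 and at -0.57 without replicate 4. CENPF, a large coiled-coil kinetochore protein, fell by less than 1.5-fold (-0.35). None of the 9 genes of the spindle checkpoint and cohesion protection was called, 2 were lower by the adjusted p alone and the median was -0.03. BUB1 stood at 0.04 (adjusted p = 0.405, edgeR) and BUB1B at -0.03 (adjusted p = 0.59, edgeR). SGO1, the protector of centromeric cohesion, was lower at -0.30 (adjusted p = 0.00131, edgeR).

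KIF20A, the kinesin of the central spindle that is needed for cytokinesis, was the one called member of 13 mitotic kinesins, 8 of which were lower and 1 higher by the adjusted p alone. It was at 78.3, 79, 101 and 78.5 CPM in siControl and at 46.3, 47, 51.6 and 43.6 CPM in siFOXM1 libraries. All 4 knockdown values lay below the controls, of which replicate 3 stood highest (log2 fold change -0.84, SE 0.0421, adjusted p = 2.52e-14). KIF2C, a microtubule-depolymerising kinesin, was lower by less than 1.5-fold (-0.51). Of 14 spindle-associated proteins 3 were called lower, namely FAM83D, which recruits a casein kinase to the spindle (-0.69), CKAP2L, a mitotic spindle protein (-0.68), and KNSTRN. Of 13 chromosomal passengers and cytokinesis genes 2 were called, KIF20A and CEP55, the abscission protein of the midbody, which was at 133, 143, 142 and 113 CPM against 82.7, 89.3, 90.2 and 73.9 CPM (log2 fold change -0.66, SE 0.0336, adjusted p = 3.04e-14). The remaining 2 mitotic lists had no called member, though 5 of 10 APC/C genes, among them PTTG1 or securin (-0.52), and 6 of 12 condensin and chromatin genes, among them MKI67 (-0.32), were lower by the adjusted p alone. TOP2A was at -0.06 (adjusted p = 0.0949, edgeR).

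**Figure D2:**
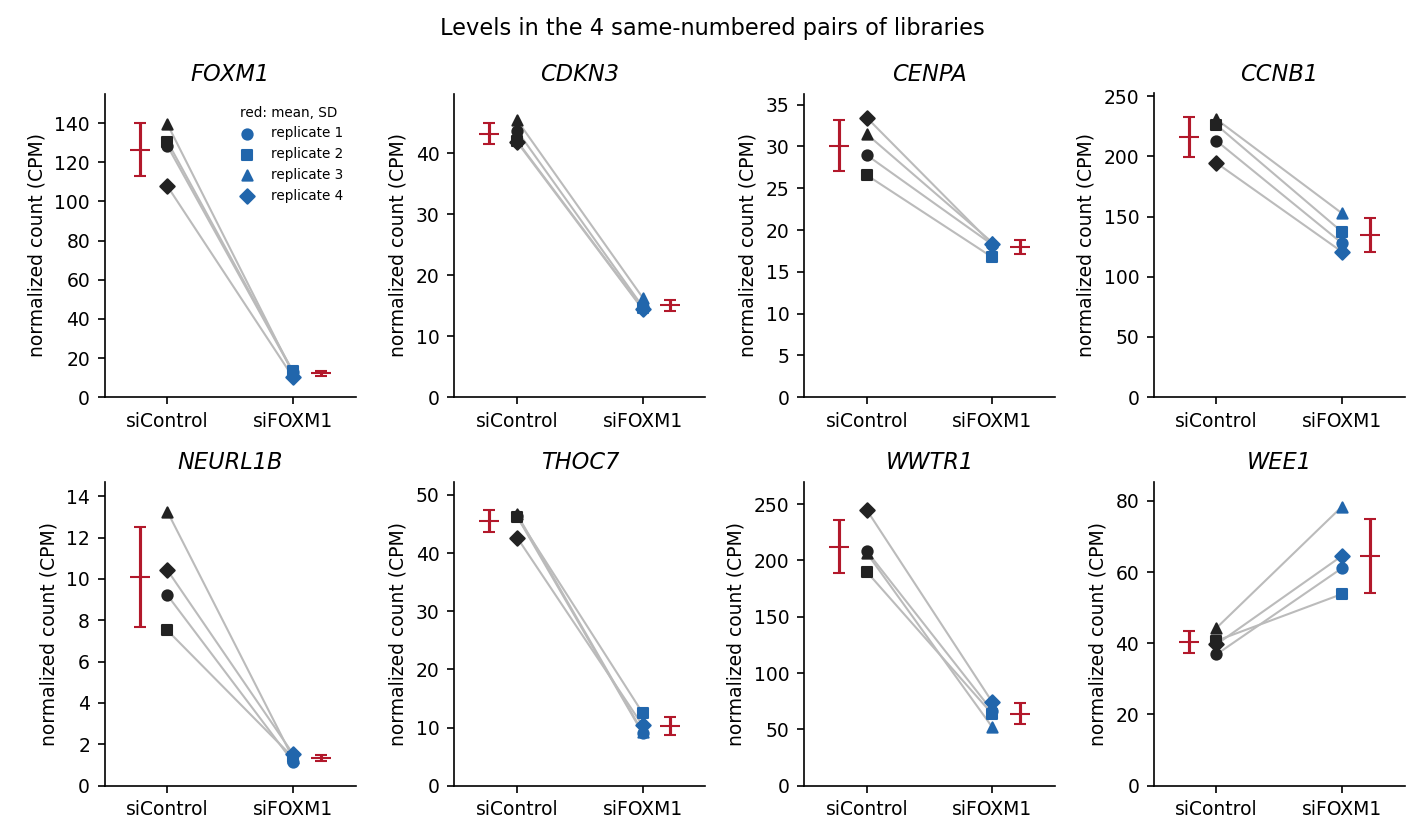
Normalized counts (CPM, axes from 0) of 8 genes in the 4 siControl libraries (black) and the 4 siFOXM1 libraries (blue), with grey lines joining same-numbered replicates and red bars giving the mean and SD of each group. All 4 lines fall for FOXM1, CDKN3, CENPA, CCNB1, NEURL1B, THOC7 and WWTR1 and rise for WEE1.

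CDKN3, a dual-specificity phosphatase that removes the activating phosphate of CDKs, changed more than any gene of the mitotic lists. It was at 43.7, 42, 45.4 and 41.8 CPM in siControl and at 14.8, 14.6, 16.3 and 14.4 CPM in siFOXM1 libraries. That is 34.8% of control, with little spread in either group (log2 fold change -1.52, SE 0.0516, adjusted p = 9.30e-18). TROAP (tastin), a protein needed for spindle integrity, was at 38.2, 37.9, 50 and 35.4 CPM in siControl and at 15.3, 16.9, 18.4 and 13.7 CPM in siFOXM1 libraries, also without overlap (log2 fold change -1.33, SE 0.0551, adjusted p = 5.89e-16). CCND1, cyclin D1 of G1 phase, was the one called member of 7 G1 cyclins and kinases, at 372, 465, 430.4 and 301 CPM against 252, 305, 269 and 201 CPM (log2 fold change -0.61, SE 0.0301, adjusted p = 2.07e-14); without replicate 3 it was at -0.58, within the 1.5-fold limit, and without the block its adjusted p was 0.112 (edgeR). Of 29 DNA replication genes none was called, 14 were lower and 1 higher by the adjusted p alone, and the median was -0.10, with MCM6 of the replicative helicase at -0.27. Of 20 MYB, MuvB, pocket protein and E2F genes none was called, 4 were lower and 4 higher, and the median was 0.03. FOXM1 and FOXQ1 (-0.76, not called without the block) were the called members of 19 forkhead factors.

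Many promoters of the called mitotic genes held the letters of late cell cycle promoters, as did many promoters of the mitotic genes that were not called. The CHR element was searched as TTTGAA or TTCGAA, the CCAAT box as CCAAT and the forkhead core as TGTTTA or TGTTTG, on both strands and with overlaps allowed, in the 300 bases from 250 before to 50 after each start site (RefSeq, GRCh38.p14). Of 11464 tested genes with a matched promoter 11.2% held the CHR letters, as did 6 of 12 mitotic genes called lower (50%) and 57 of 87 mitotic genes not called (65.5%). The CCAAT letters were in 11 of 12 mitotic genes called lower, in 63.2% of those not called and in 36.3% of all tested genes. The forkhead letters were in 16.3% of all genes called lower and in 15.9% of all tested genes. Over all 35116 promoters of that length the shares were 16.4% for CHR, 34.6% for CCAAT and 24.5% for the forkhead core. Such a match is a description and not a binding site. The promoters of CENPA at chr2:26785806-26786105 (plus strand), of CDKN3 at chr14:54396757-54397056 (plus strand) and of CDK1 at chr10:60778081-60778380 (plus strand) are shown because these genes fell and their promoters hold CHR and CCAAT letters, with the letters of all the searched motifs in capitals.
CENPA: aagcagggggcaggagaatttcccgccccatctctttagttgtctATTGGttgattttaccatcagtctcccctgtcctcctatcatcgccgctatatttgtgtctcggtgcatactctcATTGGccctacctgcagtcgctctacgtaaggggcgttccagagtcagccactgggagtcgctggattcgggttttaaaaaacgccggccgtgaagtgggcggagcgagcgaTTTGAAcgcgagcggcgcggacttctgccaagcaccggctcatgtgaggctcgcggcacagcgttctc
CDKN3: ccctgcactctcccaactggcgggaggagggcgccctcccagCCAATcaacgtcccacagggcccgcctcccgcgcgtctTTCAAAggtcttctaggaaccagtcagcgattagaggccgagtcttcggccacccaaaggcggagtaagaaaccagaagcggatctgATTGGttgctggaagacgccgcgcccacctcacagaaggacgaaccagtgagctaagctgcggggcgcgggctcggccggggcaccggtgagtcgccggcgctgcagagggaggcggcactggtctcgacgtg
CDK1: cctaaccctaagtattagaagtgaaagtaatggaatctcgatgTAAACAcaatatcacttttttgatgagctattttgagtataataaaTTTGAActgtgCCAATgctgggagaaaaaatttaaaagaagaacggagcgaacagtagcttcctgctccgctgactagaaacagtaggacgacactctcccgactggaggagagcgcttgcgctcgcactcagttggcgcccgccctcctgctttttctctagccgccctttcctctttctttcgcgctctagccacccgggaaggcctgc

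Most of the largest decreases lay outside the mitotic lists. After FOXM1, the lowest genes averaging 100 counts or more included NEURL1B, THOC7, WWTR1, B3GNT5, CDKN3, RMND5A, TROAP, SUZ12, GPR180 and HHIP. NEURL1B, a ubiquitin ligase for Notch ligands, was at 9.21, 7.51, 13.2 and 10.4 CPM in siControl and at 1.16, 1.37, 1.33 and 1.54 CPM in siFOXM1 libraries. It fell to 13.4% of control, with a log2 fold change of -2.89 (SE 0.132, adjusted p = 3.35e-15). THOC7, a subunit of the THO complex of mRNA export, was at 46.3, 46.3, 46.6 and 42.7 CPM against 9.03, 12.5, 9.23 and 10.4 CPM (log2 fold change -2.15, SE 0.0664, adjusted p = 1.27e-18), and it was the one called member of 10 tested THO/TREX genes, whose median was -0.06. WWTR1, which encodes the Hippo pathway co-activator TAZ, was at 208, 189.9, 207 and 245 CPM in siControl and at 66.3, 63.6, 51.9 and 74.2 CPM in siFOXM1 libraries. It was the one called member of 16 YAP and TAZ pathway genes (log2 fold change -1.73, SE 0.0449, adjusted p = 2.11e-20), of which 7 were lower and 2 higher by the adjusted p alone, with a median of -0.02. The transcription factor TEAD1 (-0.31) and the kinase LATS2 (-0.38) were among the 7.

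The other genes of this group have different functions. SUZ12, a core subunit of the Polycomb repressive complex that methylates histone H3, was at 145, 150.1, 161 and 142 CPM in siControl and at 58.7, 71.1, 51.4 and 58.9 CPM in siFOXM1 libraries (log2 fold change -1.32, SE 0.0530, adjusted p = 3.42e-16). RMND5A, a subunit of the CTLH ubiquitin ligase, was at 68, 76.8, 74.6 and 74 CPM against 30.8, 33, 22.3 and 26.2 CPM (log2 fold change -1.40, SE 0.0621, adjusted p = 2.26e-15). B3GNT5, a glycosyltransferase of lacto-series glycolipids, was at 30.7, 33.3, 26.3 and 19 CPM against 10.4, 12.6, 7.14 and 5.97 CPM (log2 fold change -1.61, SE 0.0718, adjusted p = 2.26e-15). In these 3 genes every siFOXM1 value lay below every siControl value. The receptor-like GPR180 was at -1.31, and HHIP, an antagonist of Hedgehog ligands, at -1.25, which was not called without the block (adjusted p = 0.0796, edgeR). FKBP5, a co-chaperone of the glucocorticoid receptor, was at 61, 56, 61 and 66.9 CPM in siControl and at 28.8, 27.2, 26.1 and 27.6 CPM in siFOXM1 libraries (log2 fold change -1.16, SE 0.0472, adjusted p = 4.48e-16), and the other 8 tested glucocorticoid-responsive genes were not called.

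Many of the transcripts that fell held the same 7-base word in the 3′ UTR. The word GTGTTTA, read on the transcript strand, was chosen with its earlier result in these data known, so its counts are a description. It contains the letters of the forkhead core TGTTTA, but here it was counted in 3′ UTRs. Sites of the lowest genes are shown with 11 bases on either side and the word in capitals (hg38), since 7 of the 12 lowest genes hold it. The site of NEURL1B lies at chr5:172689175-172689203 on the plus strand, that of THOC7 at chr3:63834059-63834087 on the minus strand, the first of WWTR1 at chr3:149519427-149519455 on the minus strand, and those of SUZ12 at chr17:32000374-32000402 on the plus strand and chr17:32000454-32000482 on the plus strand. FKBP5 has one at chr6:35575740-35575768 on the minus strand and CDK1 one at chr10:60794756-60794784 on the plus strand.
NEURL1B: gaggtaaggaaGTGTTTAtcttctaaaaa
THOC7: atgaccataatGTGTTTAaaatgtggtat
WWTR1: ctagatttcaaGTGTTTAaaataattcta
SUZ12 first: gtctttaagatGTGTTTAactgtgaggct
SUZ12 second: cattgatttttGTGTTTAaaaaaaaatag
FKBP5: aggacagaacaGTGTTTAatgtaaagttt
CDK1: attttgacataGTGTTTAttagcagccat

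Of 13142 tested genes with a 3′ UTR of at least 30 bases, 2308 (17.6%) held the word. It was in 99 of 209 genes called lower (47.4%), in 94 of 196 called lower outside the mitotic lists (48.0%), in 5 of the 13 mitotic genes called lower and in 9 of 92 genes called higher (9.78%). Among genes called lower that averaged 100 counts or more the share was 59.6%, 81 of 136. The 3′ UTRs of the genes called lower had a median of 2035 bases, against 1339 over all tested genes. Over the 2308 genes with the word the median log2 fold change was -0.07 against 0.01 without it, and it was -0.06 with 1 word, -0.14 with 2 and -0.16 with 3 or more. Genes with more words also have longer 3′ UTRs, and within UTRs of 1000 to 2000 bases the medians were -0.08 with and 0.01 without the word. The reverse complement of the word, in 1147 genes without the word itself, came with a median of 0.01, and 0.959% of those genes were called lower against 4.29% of genes with the word. Where the word was followed by A, 7.93% of 807 genes were called lower, against 2.33% of 1501 genes where it never was. None of 2370 mature miRNAs in the RefSeq table had bases 2 to 8 complementary to the word. Shorter matches were not counted, and whether a miRNA acts on these transcripts was not tested. The siRNA sequences were not used here, and whether they pair with the word was not tested.

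**Figure D3:**
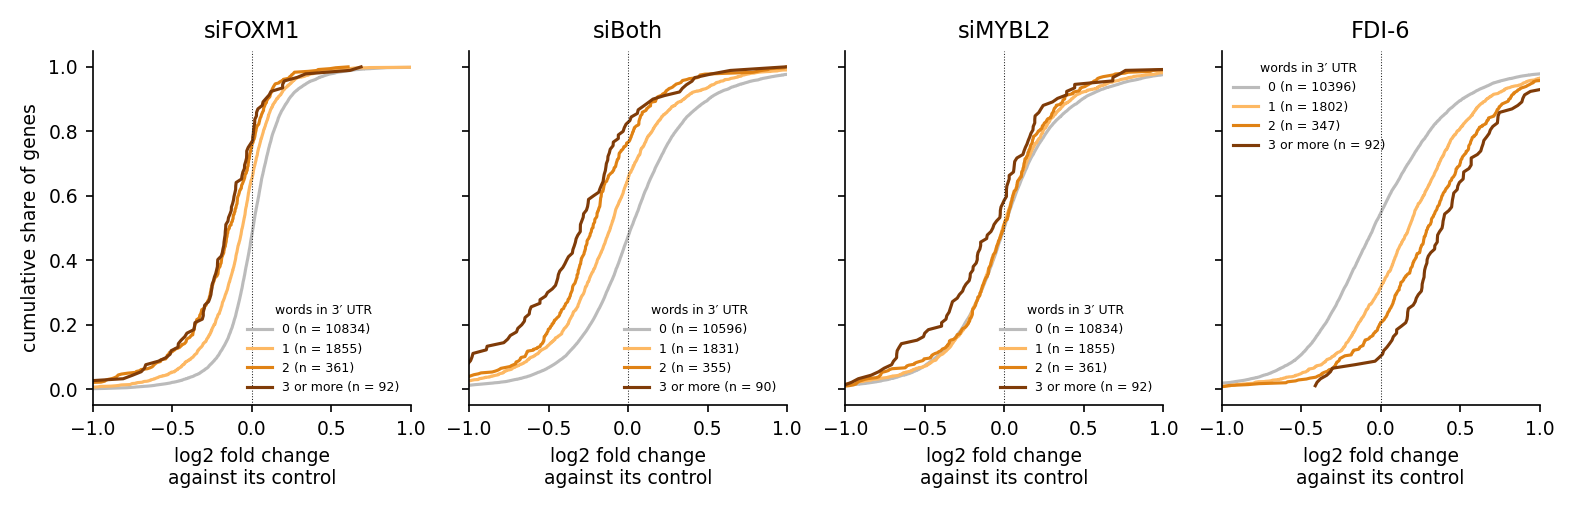
Cumulative share of genes (vertical axis) against log2 fold change (horizontal axis, cut at 1 on either side) for genes with 0, 1, 2 or 3 or more copies of the word in the 3′ UTR, in 4 experiments; siFOXM1 and siMYBL2 share their controls. The curves with words lie left of the grey curve for siFOXM1 and siBoth and right of it for FDI-6.

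The genes called higher formed a small set of low-level genes. Of the 167, 4 were in a functional list (WEE1, BTG2, IL3RA and IFIH1), as were 353 of the 15892 genes tested. Of the 167, 74 had 4 siFOXM1 values above all 4 siControl values (44.3%). The groups did not overlap for 65.4% of the genes called lower and for 9.19% of all genes tested. The calls were made on the same values, so that this separation is partly fixed by that choice. Of the 167, 12 were called higher both with and without the block. The 12 were AMMECR1, ANKRD52, BTG2, IL3RA, LINC02747, PIK3IP1, PSKH1, TRIM73, WEE1, the pseudogene FAM86HP and the unnamed genes ENSG00000269896 and ENSG00000272669. Of the exon bases of FAM86HP 91.6% overlap another gene on the same strand, so its counts are uncertain, as are those of TRIM73, which has a near-identical copy in TRIM74. LINC02747, a long noncoding RNA, was at 6.35, 6.97, 6.45 and 6.75 CPM in siControl and 8.72, 8.97, 11.7 and 11.2 CPM in siFOXM1 libraries, without overlap (log2 fold change 0.61), and at 0.52 without replicate 3 and 0.57 without replicate 4, within the 1.5-fold limit.

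BTG2, an antiproliferative gene and p53 target, was at 23.8, 22.5, 24.3 and 24.1 CPM in siControl and at 35.6, 30.7, 43.4 and 34.6 CPM in siFOXM1 libraries. The groups did not overlap (log2 fold change 0.60, SE 0.0571, adjusted p = 6.07e-09), and without replicate 3 the log2 fold change was 0.52, within the 1.5-fold limit. IL3RA, the alpha chain of the interleukin-3 receptor, was at 3.44, 2.52, 3.12 and 3.67 CPM against 5.86, 4.99, 6.76 and 8.26 CPM, a 2.03-fold rise (log2 fold change 1.02, SE 0.116, adjusted p = 1.64e-07). PSKH1, a serine kinase, was at 24.6, 22.5, 19.1 and 25.6 CPM in siControl and at 40.9, 36.6, 33.1 and 38.5 CPM in siFOXM1 libraries (log2 fold change 0.70, SE 0.0510, adjusted p = 4.03e-11). AMMECR1 was at 39.2, 34.9, 32.1 and 34.4 CPM against 62.7, 55.6, 60.3 and 53 CPM (log2 fold change 0.72, SE 0.0474, adjusted p = 5.22e-12). ANKRD52, a regulatory subunit of protein phosphatase 6, had the highest counts of these genes, with 269, 275, 305 and 247 CPM in siControl and 412, 406, 486 and 360.2 CPM in siFOXM1 libraries (log2 fold change 0.60, SE 0.0304, adjusted p = 2.92e-14), and 0.57 without replicate 3. PIK3IP1, an inhibitor of phosphoinositide 3-kinase, was at 2.37, 1.87, 2.31 and 2.02 CPM against 4.21, 3.58, 4.22 and 3.48 CPM (log2 fold change 0.85, SE 0.140, adjusted p = 3.81e-05). In each of these genes all 4 knockdown values were above all 4 control values.

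Of the 12 highest genes averaging 100 counts or more, NECAB2, a neuronal calcium-binding protein, had the largest change, at 2.45, 3.96, 1.72 and 3.37 CPM in siControl and 4.82, 6.32, 4.41 and 9.47 CPM in siFOXM1 libraries (log2 fold change 1.12, SE 0.133, adjusted p = 3.43e-07). NPTX1, a neuronal pentraxin, was at 15.2, 32.7, 10.9 and 18.4 CPM against 29.6, 50.7, 21 and 31.7 CPM (log2 fold change 0.81, SE 0.0591, adjusted p = 4.59e-11). Its groups overlapped while every pair rose. TAGLN, a smooth muscle actin-binding protein, was at 6.14, 2.90, 9.60 and 2.70 CPM against 9.34, 7.56, 16.8 and 4.07 CPM (0.83). Of its exon bases 34.1% overlap an opposite-strand gene and 38.1% a same-strand gene. KCNJ16, a potassium channel, was at 1.78, 1.10, 1.72 and 7.25 CPM against 3.74, 2.62, 2.66 and 10.4 CPM, with replicate 4 high in both groups (0.76). The others were the channel KCND1 (0.87), SOX6, a transcription factor (0.72), PBLD (0.71), the riboflavin transporter SLC52A3 (0.70), and ORAI3, a calcium channel subunit (0.70), for which 52.9% of exon bases overlap a same-strand gene and the value without replicate 2 was 0.57. Of the 12 highest genes, AMMECR1, IL3RA and PSKH1 were called without the block and the other 9 were not.

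Outside mitosis most lists had few called members and medians between -0.24 and 0.16. The list members CCND2, HEY2, SARNP, CSF2RB, FOXJ1, ZBTB16, OAS2, IFI27, IFI44L and RSAD2 did not pass the filter on low counts and were not tested. Of 13 sterol synthesis genes 11 were higher and 1 lower by the adjusted p alone and none was called, with a median of 0.16. HMGCS1, the synthase ahead of the rate-limiting step, was at 152, 154, 174 and 141 CPM in siControl and at 214, 213, 258 and 183 CPM in siFOXM1 libraries (log2 fold change 0.48, SE 0.0332, adjusted p = 1.62e-11). Among 12 genes of the unfolded protein and integrated stress response 8 were lower and 1 higher, a median of -0.20, with CHAC1 called at -0.65 and the transcription factors ATF3 at -0.46 and ATF4 at -0.21; without replicate 4 CHAC1 was at -0.43, and CHAC1, NEURL1, IRF7 and IFIH1 were not called without the block. Among 15 Notch pathway genes 5 were lower by the adjusted p, with NEURL1B and NEURL1 (-0.93) called. Of 20 p53 targets 6 were lower and 5 higher, with the CDK inhibitor CDKN1A at 0.25 and the death receptor TNFRSF10B at -0.35. Of 20 interferon-stimulated genes 4 were lower and 3 higher, with IRF7 called at -0.65 and IFIH1 at 0.60; IRF7 was at -0.57 without replicate 3 and without replicate 4, and IFIH1 at 0.53 without replicate 2 and at 0.52 without replicate 3. Of 13 cytokine receptor and IL-6 family genes 3 were lower and 2 higher, of 15 epithelial-mesenchymal transition genes 5 were lower and 3 higher, and of 14 glycolysis and hypoxia genes 5 were lower and 1 higher, with medians of -0.05, -0.12 and -0.03. Of 6 CDK inhibitors and CDKN3, 2 were lower and 1 higher, with a median of -0.24.

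**Figure D4:**
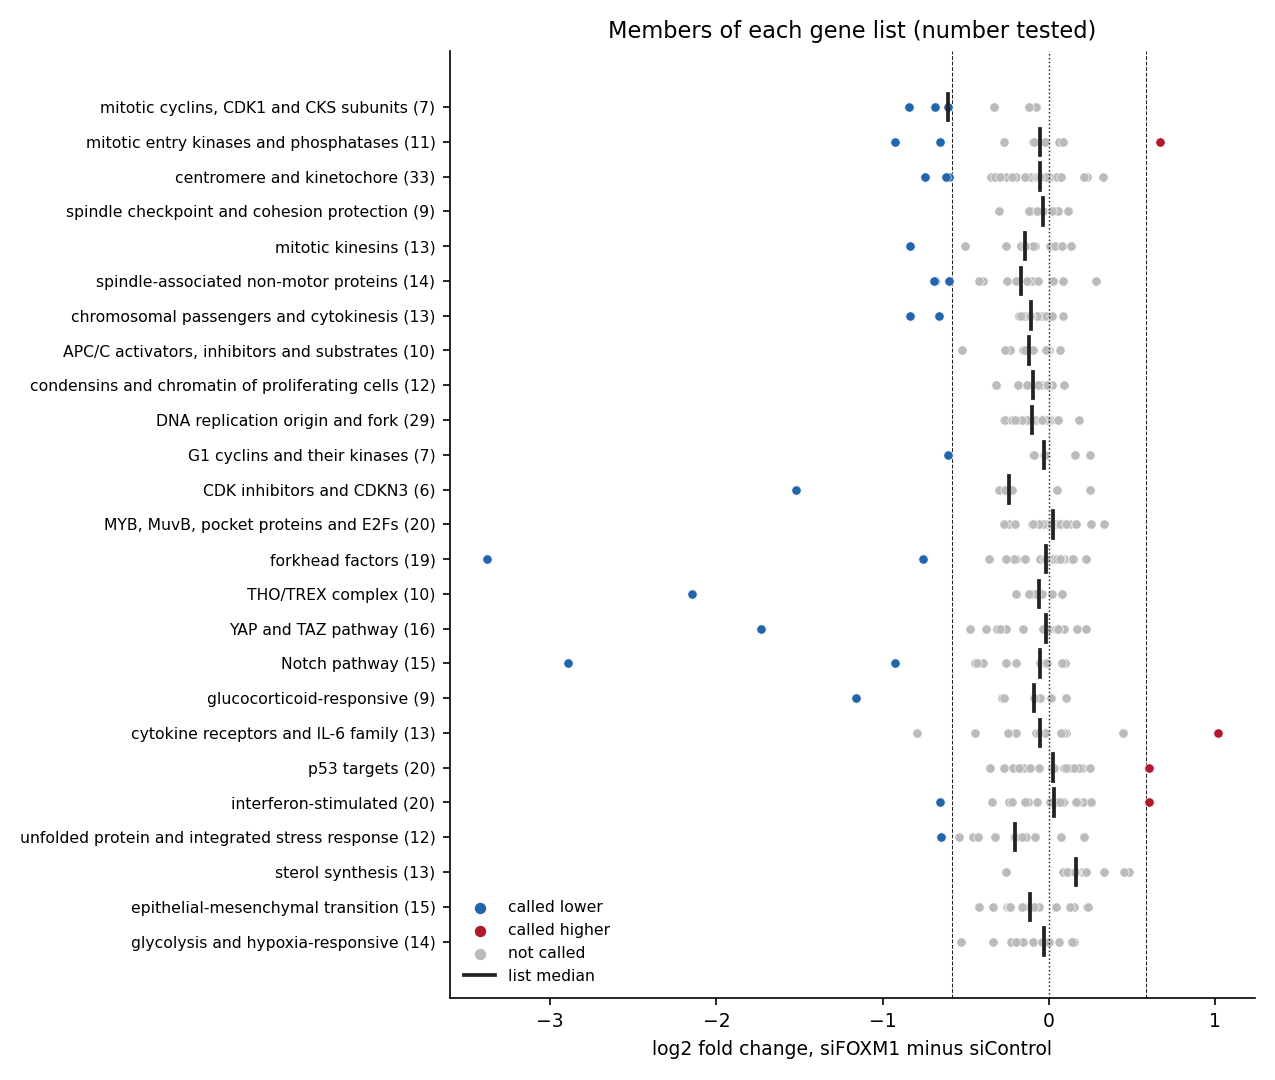
Log2 fold change of siFOXM1 over siControl (horizontal axis) for each tested member of 25 gene lists (rows, number tested in parentheses). Blue and red points were called lower and higher, black ticks are list medians, dashed lines mark 1.5-fold and the dotted line the median of all genes; apart from the mitotic cyclins, list medians lie between -0.24 and 0.16.

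Set directly against MYBL2 knockdown, 2 of the 13 mitotic decreases and 147 of the 221 other decreases were called lower with siFOXM1. In the direct comparison of siFOXM1 with siMYBL2, 1432 of 16538 genes (8.66%) were called lower and 982 (5.94%) higher in siFOXM1. The genes below were called on the same siFOXM1 libraries, so that a lower value in siFOXM1 is partly fixed by that choice. Of the 13 mitotic genes 2, CKAP2L and MIS12, were called lower in siFOXM1 than in siMYBL2 and 11 were not called. By the adjusted p alone 3 were lower, NEK2 among them (difference -0.57, adjusted p = 3.83e-07, edgeR), and 2 were higher in siFOXM1, CCNF (0.44, adjusted p = 9.55e-05, edgeR) and CENPA (0.33, adjusted p = 5.30e-04, edgeR). CENPA stood at -0.75 with siFOXM1 and at -1.08 with siMYBL2, CCNB1 at -0.68 and -0.78, and CDK1 at -0.69 and -0.64, each against the shared controls. A missing call does not show that the knockdowns act alike. The 116 mitotic genes as a whole had a median of -0.43 with siMYBL2 and of -0.09 with siFOXM1. Outside the mitotic lists 147 of 221 genes were lower in siFOXM1 than in siMYBL2 (66.5%) and none was higher. THOC7 was at -2.15 with siFOXM1 and at 0.02 with siMYBL2 (difference -2.18, adjusted p = 7.41e-14, edgeR), and RMND5A was at -1.40 and 0.55. Other genes with large decreases were also called lower with siMYBL2, against the shared controls. They were NEURL1B at -1.02, WWTR1 at -0.95, B3GNT5 at -0.72, CDKN3 at -1.05 and TROAP at -0.82. In the direct comparison NEURL1B (difference -1.88), WWTR1 (-0.79) and B3GNT5 (-0.89) were still called lower in siFOXM1. CDKN3 (-0.48) and TROAP (-0.51) were lower there by the adjusted p alone. SUZ12 (-0.17) and GPR180 (0.13) were not called with siMYBL2, and HHIP was called higher there (0.81). FOXM1 itself was called lower with siMYBL2, at -0.75 (adjusted p = 8.85e-10, edgeR). Of the genes called higher 60 of 167 were higher in siFOXM1 than in siMYBL2 (35.9%) and 4 lower. With siMYBL2 the log2 fold changes were -0.87 for AMMECR1, -0.37 for ANKRD52, 1.38 for PIK3IP1 and 0.84 for BTG2.

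In the double knockdown, with controls of its own, 5.08% of 15812 genes were called lower and 6.62% higher. FOXM1 was at -3.38 there. Of 226 tested genes called lower with siFOXM1, 79 were called lower in siBoth (35.0%) and 19 higher, and of 143 called higher, 48 were called higher (33.6%) and 4 lower. The 48 became 18 where the double knockdown was fitted without the block. Of the 13 mitotic genes 12 were called lower, with a median of -1.19 against -0.68 with siFOXM1 alone. KIF20A was at -2.20, CCNF at -2.0 and CENPA at -1.87. Outside the mitotic lists 67 of 213 were called lower, among them NEURL1B (-2.60), THOC7 (-1.73) and WWTR1 (-1.99). Genes called lower with the 3′ UTR word had a median of -0.56 in siBoth and those without it -0.12. Their median 3′ UTR lengths were 2855 and 1005 bases. Over all tested genes without the word the siBoth median was 0.10 in UTRs of 30 to 500 bases. It was -0.09 in those of 4000 bases or more. Within 1000 to 2000 bases it was -0.08 with and -0.01 without the word. Count level differed too, since genes called lower with a 3′ UTR had a siBoth median of -0.39. Those averaging 100 counts or more had -0.57. The part of length and level in the gap was not tested. Of the genes called higher with siFOXM1, BTG2 was at 1.33 and PIK3IP1 at 1.30 in siBoth, whereas AMMECR1 was at -0.58 (adjusted p = 3.67e-04, edgeR) and ANKRD52 at -0.17. The single and double knockdowns used separate controls and were not set against each other in one test.

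With FDI-6, 5.77% of 15240 genes were called lower and 8% higher. Of 216 tested genes called lower with siFOXM1, 11 were called lower with FDI-6 (5.09%, close to the share of all genes) and 55 higher (25.5%). Of 130 called higher with siFOXM1, 4 were called higher and 14 lower. The 13 mitotic genes had a median of -0.14, with CENPA at -0.60, CCNF at -0.46 and CCNB1 at -0.38. FOXM1 mRNA was at -0.37 with FDI-6. Genes with the 3′ UTR word had a median of 0.20 with FDI-6 and those without it -0.05, the opposite order to siFOXM1. The FDI-6 values also moved with 3′ UTR length. Without the word the median was -0.22 in UTRs of 30 to 500 bases and 0.24 in those of 4000 bases or more, and within 1000 to 2000 bases it was 0.11 with and 0.00 without the word. Genes with the reverse complement and no word were at 0.16. B3GNT5 was called higher with FDI-6, at 1.64, and SUZ12 was at 0.38. NEURL1B was called lower, at -0.91 (adjusted p = 5.90e-05, edgeR), as was TROAP at -0.63.

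**Figure D5:**
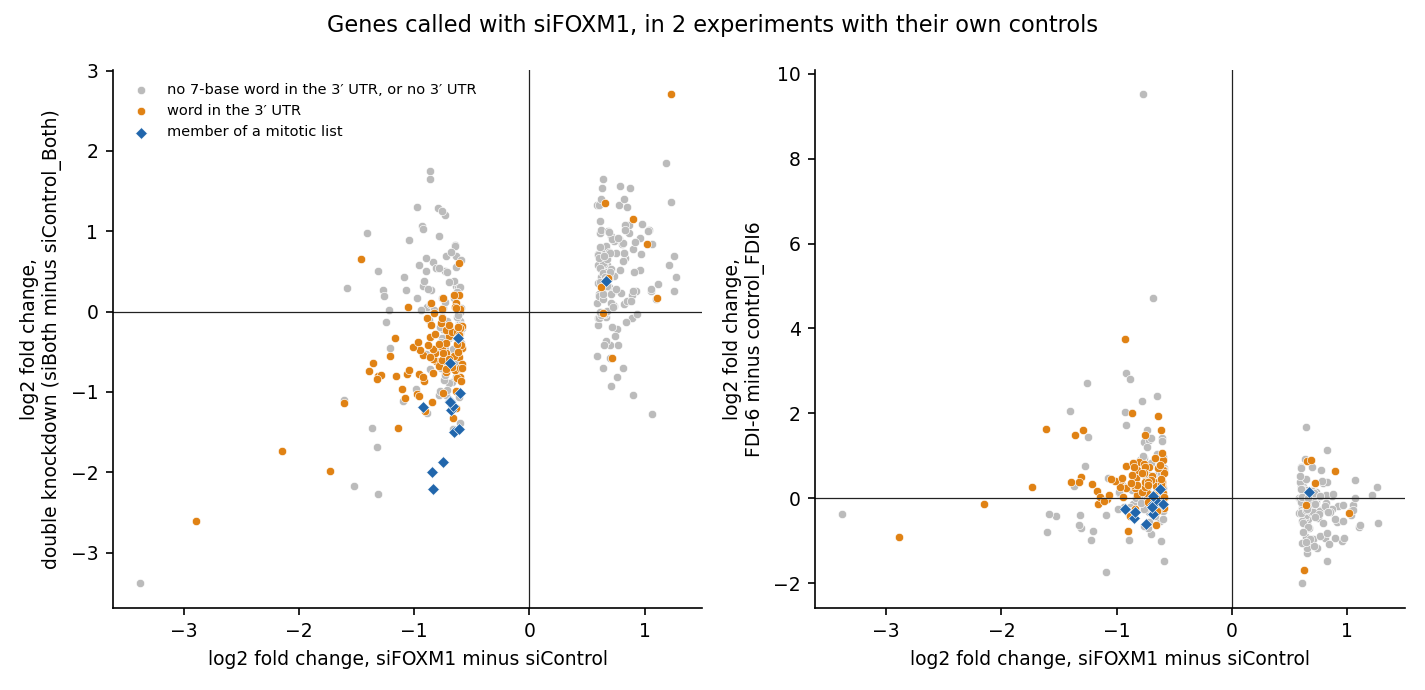
Log2 fold changes in the double knockdown (left, vertical axis) and with FDI-6 (right, vertical axis) against those with siFOXM1 (horizontal axis) for the genes called with siFOXM1. Blue diamonds are members of the mitotic lists and orange points other genes with the word in the 3′ UTR; mitotic genes called lower lie below 0 on the left, and orange points lie on both sides of 0 on the right.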

How the data were processed

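RNA from A549 cells was sequenced as polyA-selected paired-end libraries. The authors trimmed reads with Trim Galore, aligned them with STAR to hg38 and counted read pairs per gene with HTSeq on GENCODE V29 annotation, and they deposited 1 table of raw counts per library. Tool versions and the strand setting are not given in the sources used here. Rows that name no gene were left out of library sizes and tests, namely 3.75% to 4.58% of pairs in no gene, 9.25% to 9.60% ambiguous and 1.91% to 2.12% not aligned in the 8 libraries.

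From the deposited counts, siFOXM1 and siControl (4 libraries each) were compared with edgeR 4.0.16 (filterByExpr, TMM, glmQLFTest) with the replicate number as a block, since the deviations of same-numbered libraries correlated at 0.54 to 0.90 and those of different numbers at -0.70 to 0.12 over 11932 genes. Adjusted p-values are Benjamini-Hochberg values over all genes tested. The standard error is the log2 fold change divided by the square root of F. The direct siFOXM1 to siMYBL2 comparison was fitted on those 2 groups and siControl together, siBoth on its own 6 libraries, both with the block, and FDI-6 on its own 6 without it. Within siFOXM1 and within siControl no library was a duplicate of another, and the other libraries were not checked for this. Gene names matched 58207 of 58721 rows of the files in GENCODE version 44 (hg38), which also gave exon overlaps and 3′ UTRs. Promoters were matched by symbol and chromosome. The fit was tested on simulated counts with known fold changes.

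Named genes were FOXM1 and MYBL2, the study's shared targets, the 12 lowest and 12 highest called genes averaging 100 counts or more and moving 1 way in all 4 pairs, genes called higher with and without the block, and up to 4 members of each list with the lowest adjusted p. Some genes that this rule names are not reported here. The members, gene lists and the 3′ UTR word were chosen with earlier results of these data known. Alternatives were DESeq2 1.42.0, other scalings and filters, glmTreat, no block, all 12 libraries in one fit and leaving out each replicate. GC and length correction with the block, DESeq2 without the block, and the fits of the other experiments with the block added or dropped were chosen after seeing the data.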

Additional observations from a re-analysis of the deposited data

Results flagged for a closer look

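The check covered most genes named by the rule above, including some that the text does not mention. Genes given after their values were seen were not checked. Of 236 groups of 4 values, one for each checked gene and group, 18 (7.63%) held a library that stood apart. In these the gap to the nearest neighbour took more than 0.829 of the range of the group, where chance gives about 1 group in 20. Replicate 4 stood apart in 5 siControl and 4 siFOXM1 groups. ANGPTL4, a hypoxia- and glucocorticoid-responsive gene, was at 67.3 CPM in siControl replicate 4 and at 56.5 CPM in siFOXM1 replicate 4, against 11.5 to 19.7 CPM in the other libraries. KCNJ16 was at 7.25 CPM in siControl replicate 4 and at 10.4 CPM in siFOXM1 replicate 4. In siFOXM1 replicate 4 the hypoxia-responsive genes BNIP3 and NDRG1 were at 111 and 144 CPM, and in siControl replicate 4 CCND3 was at 149 CPM, TEAD1 at 296 CPM and THOC7 at 42.7 CPM. Replicate 3 stood apart for CCNA2 (119 CPM), KIF20A (101 CPM), MIS12 (31.1 CPM) and PFKFB3 (423 CPM) in siControl, and for CDKN2D (3.15 CPM) and PFKFB3 (477 CPM) in siFOXM1. Replicate 2 of siFOXM1 was low for CENPA (16.7 CPM), replicate 1 of siFOXM1 for CDK1 (79.4 CPM) and replicate 1 of siControl for KIF14 (90.2 CPM). ANGPTL4, KCNJ16 and PFKFB3 stood apart in the same replicate of both groups.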

How the results depend on the processing

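The count of calls depended on the block and on how the fold limit was applied. No direction of a named gene reversed, and other genes were not checked for this. Most named genes were chosen by the main fit and the alternatives use the same counts, so this outcome was partly fixed by that choice. The 401 genes called became 106 without the replicate block, 240 with DESeq2, 61 with edgeR's glmTreat against 1.5-fold and 152 with DESeq2 without the replicate block. The 234 lower genes became 94 without the block, 57 with glmTreat and 127 with DESeq2 without the block, and the 167 higher genes became 12, 64 (DESeq2), 4 (glmTreat) and 25 (DESeq2 without the block). The genes called without the block were all among those called with it. The higher share of calls was 26.7% with DESeq2, 16.5% with DESeq2 without the block and 6.56% with glmTreat, against 41.6%. The 13 mitotic genes became 3 with glmTreat. MYBL2 was at -0.0875 (adjusted p = 0.0261, edgeR) with the replicate block and GC and length correction, past the adjusted p. The 48 genes higher in both siFOXM1 and siBoth became 18 where siBoth was fitted without the replicate block. Leaving out each replicate gave 329 to 421 calls, 200 to 256 lower, 127 to 174 higher and 11 to 13 mitotic, with FOXM1 at -3.41 to -3.34 and MYBL2 at -0.06 to -0.05. Of 1698 values of named genes under alternatives 1435 stayed on their side of the threshold, 257 lost it and 6 gained it. The higher genes had a median of 38.6 counts per gene, and among those averaging 100 counts or more 7 of 30 were called without the block, against 89 of 140 lower genes. The causes of these changes were not tested.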

Other observations

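Genes outside the lists, chosen here after their values were seen, were called lower as well. GPSM2, which orients the mitotic spindle, was at 23.8, 25.9, 28.2 and 27.4 CPM in siControl and at 12, 11.9, 11.8 and 14 CPM in siFOXM1 libraries, without overlap (log2 fold change -1.08, SE 0.0638, adjusted p = 5.84e-13, edgeR). NDE1, a dynein regulator (-0.64), GAS2L3, a cytoskeletal linker of the central spindle (-0.64), and MZT1, a subunit of gamma-tubulin complexes (-0.59), were also called lower. FYTTD1, an mRNA export adaptor, was at 68.4, 70.3, 66.5 and 61.4 CPM against 28.8, 35, 22.3 and 29.7 CPM (log2 fold change -1.21, SE 0.0606, adjusted p = 2.27e-14, edgeR). Of Hippo pathway regulators outside the list, the kinase STK3 was at -0.73, the scaffold AMOTL1 at -0.69 and the phosphatase PTPN14 at -0.77. None of these 3 was called without the block, and they were picked because they were called lower.

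CXCL1, CXCL2, CXCL3, CXCL5 and CXCL8, neutrophil-attracting chemokines picked because they were called lower, fell within pairs although the levels of most differed widely between replicates. Other chemokines were not counted. CXCL1 was at 114, 61.9, 66.8 and 12.1 CPM in siControl replicates 1 to 4 and at 58.5, 34.6, 29.9 and 9.11 CPM in siFOXM1 libraries (log2 fold change -0.91, SE 0.0621, adjusted p = 1.06e-11, edgeR). CXCL8, interleukin-8, was at 105, 82.1, 55.5 and 11.7 CPM against 53.4, 54, 34.4 and 10.8 CPM (log2 fold change -0.68, SE 0.0666, adjusted p = 1.08e-08, edgeR). CXCL2 (-0.89), CXCL3 (-0.86), CXCL5 (-0.86) and PTGS2, the inducible cyclooxygenase (-0.64), were called lower too. None of these 6 genes was called without the block, and the 8 values of each overlap between groups. With FDI-6 CXCL8 was at 4.71 and CXCL1 at 2.94, and in the double knockdown they were at 0.74 and 0.38.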
